A study of Mus musculus with 6 samples.

Results

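A set of 9 genes of epithelial cell adhesion was followed across the series: the cadherins Cdh1, Cdh2 and Cdh3, the claudins Cldn3, Cldn4, Cldn6 and Cldn7, the adhesion molecule Epcam and the scaffold Tjp1. They were picked out by gene symbol, with no threshold on a measured value, but the set was chosen with earlier results of these data known. All 9 were found among the 28584 genes of the expression table. Levels are given as TPM, read counts divided by transcript length and scaled so that every library has the same total. All 9 genes reached 1 TPM in 2 or more libraries and so were among the 18556 genes tested.

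Polyadenylated RNA was sequenced from mouse embryonic stem cells (ESCs), and 1 ESC line, made from a C57BL/6 x 129S6 blastocyst (strain label C57BL6/129S6), gave all 6 libraries. Cells of every group were first grown on mitomycin C-inactivated mouse embryonic fibroblast (MEF) feeders in medium with serum and leukemia inhibitory factor (LIF). They were then moved to a basic medium with ESC-quality FBS, and whether feeders were kept is not stated in the study. The -LIF-ESCs (n = 2) then received no cytokine, and the LIF-ESCs (n = 2) received LIF at 1000 U/mL. The OSM-ESCs (n = 2) received oncostatin M (OSM), in the study at 10 ng/mL. LIF-ESCs thus continued in LIF and -LIF-ESCs had it withdrawn, so fell and rose below mean lower and higher than in -LIF-ESCs. RNA was taken at passage 10 in the study, counted from the change of medium. The design asks how the transcriptome of cells kept in OSM compares with that of cells kept in LIF or in neither.

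Cdh1 (E-cadherin) joins epithelial cells and naive ESCs to their neighbours at adherens junctions, through catenins that link it to actin, whereas Cdh2 (N-cadherin) does so in neural and mesenchymal cells. Claudins form the strands of tight junctions, which seal the space between epithelial cells, and Tjp1 (ZO-1) ties these strands to the cytoskeleton. Epcam is a homophilic adhesion molecule of epithelia and ESCs that also associates with claudins, Cldn7 in particular. ESC colonies hold together through Cdh1, and a shift from Cdh1 to Cdh2 is a known mark of cells leaving the epithelial state.

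The libraries held 20712974 to 28994419 reads in genes, as recovered from the TPM values and exon lengths, and in ESC markers they were alike within groups. Summed TPM of 8 ESC markers (Pou5f1, Sox2, Nanog and others) was 5423 to 5439 without cytokine, 7018 to 7064 with LIF and 6536 to 6573 with OSM, and none of the 8 was at 0 in any group. Of the 8, 6 were higher and 1, Nanog, was lower in each cytokine group (limma adjusted p under 0.05). At this threshold 42.2% of all genes tested were higher and 25.9% lower with LIF, and 42.9% and 25.4% with OSM. Nanog was at 436 and 431 TPM without cytokine, 289 and 291 TPM with LIF, and 270.4 and 252 TPM with OSM. The extraction text of the labels names ovary RNA, whereas the cell type label and these markers are of ESCs. The median of all genes tested lay above that of -LIF-ESCs by 0.17 with LIF and by 0.18 with OSM on the log2(TPM + 1) scale. After each library was rescaled by its median ratio over genes, these medians were 0 and 0.0023.

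Compared with -LIF-ESCs, Cdh1, Cdh3, Epcam, Tjp1 and the 4 claudins fell both in LIF-ESCs and in OSM-ESCs, and Cdh2 was the 1 member that rose, in LIF-ESCs not under every alternative run. Thus 8 of 9 members were lower and 1 was higher at an adjusted p under 0.05 in LIF-ESCs (limma with Benjamini-Hochberg adjustment over all genes tested), where 25.9% of all genes tested were lower and 42.2% higher. OSM-ESCs gave the same counts, 8 lower and 1 higher, where 25.4% of all genes were lower and 42.9% higher. With a fold change of at least 2 required as well, Cdh1, Cldn3, Cldn6 and Cldn7 were called lower in each comparison and no member was called higher. This limit was passed by 8.09% of all genes on the lower side and 13.3% on the higher side in LIF-ESCs, and by 7.86% and 14.2% in OSM-ESCs. The 2 comparisons share the -LIF-ESCs libraries and are not independent. Since the 9 genes were chosen with earlier results of these data known, these counts are descriptive only. The median log2 fold change of the 9 members was -0.998 with LIF and -0.987 with OSM.

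**Figure D1:**
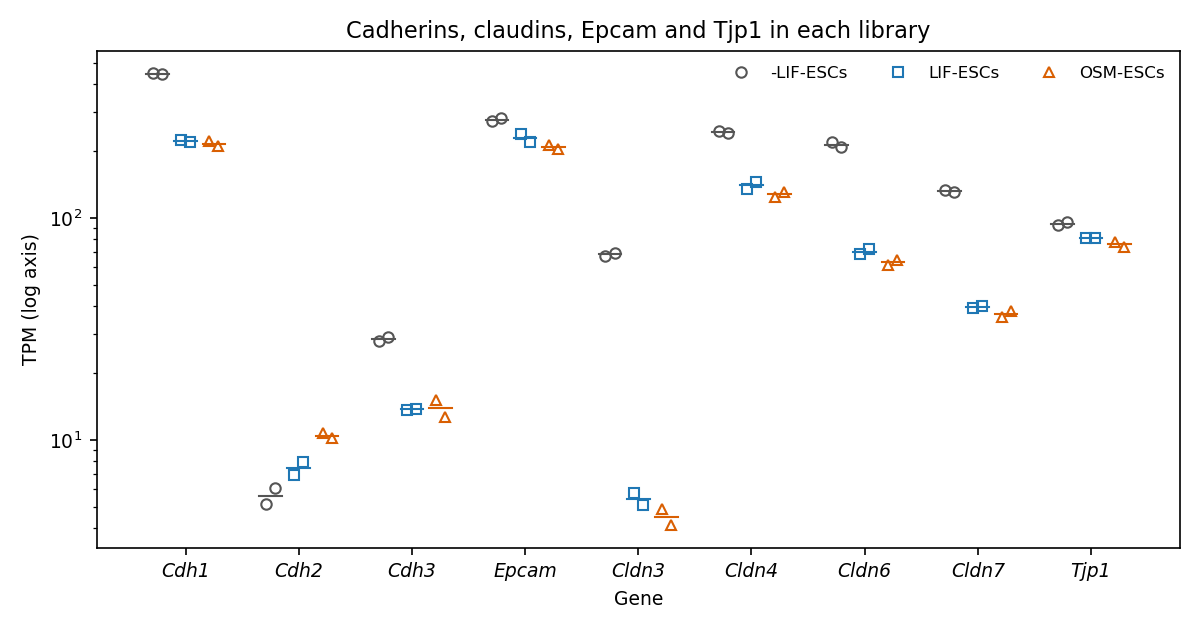
TPM (log axis) of the 9 genes in each of the 6 libraries; points are libraries, horizontal lines are group means, and colours and shapes mark -LIF-ESCs, LIF-ESCs and OSM-ESCs. For Cldn3 the -LIF-ESCs libraries lie at 67.4 and 69.7 TPM and the other 4 between 4.13 and 5.76 TPM, and Cdh2 is the gene for which -LIF-ESCs lie lowest.

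Among the cadherins, Cdh1 (chr8:106603351-106670246 on the plus strand, GRCm38) was the most abundant member in -LIF-ESCs. Its level was 447 and 445 TPM in the -LIF-ESCs libraries, 223 and 220.0 TPM in LIF-ESCs, and 222 and 211 TPM in OSM-ESCs. Both -LIF-ESCs libraries thus lay far above the other 4, and the libraries of LIF-ESCs and OSM-ESCs overlapped. Mean Cdh1 was 446 ± 1.45 TPM (SD, n = 2) without cytokine, 2.01-fold that of LIF-ESCs (222 ± 2.16) and 2.07-fold that of OSM-ESCs (216 ± 7.76). On the log2(TPM + 1) scale, used for all fold changes below, Cdh1 fell by 1.01 (SE 0.0355, limma adjusted p = 1.63e-05) in LIF-ESCs and by 1.04 (limma adjusted p = 1.42e-05) in OSM-ESCs.

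Cdh3 (P-cadherin, chr8:106510891-106557297 on the plus strand), a classical cadherin of placenta and basal epithelia, showed the same pattern at a far lower level. It was at 27.9 and 28.9 TPM in -LIF-ESCs, 13.7 and 13.8 TPM in LIF-ESCs, and 15.1 and 12.7 TPM in OSM-ESCs. The -LIF-ESCs libraries were again apart from the rest, whereas the LIF-ESCs libraries lay within the range of OSM-ESCs. Cdh3 fell by 1.00 in LIF-ESCs (SE 0.0878, limma adjusted p = 0.000298) and by 0.99 in OSM-ESCs (limma adjusted p = 0.000307). With 1 added to TPM it lay just outside the limit of 2-fold, as Cdh1 lay just inside it, although its mean TPM was 2.07-fold and 2.05-fold lower. The call of Cdh3 depended on the setting. It was past the limit with 0.1 added to TPM (-1.04 with LIF and -1.03 with OSM) and after rescaling by the median ratio (-1.18 in each). Single libraries moved both genes across the limit as well. Without LIF-ESCs replicate 2, the difference in LIF-ESCs was -0.996 for Cdh1 and -1.004 for Cdh3. Cdh3 was also past the limit without -LIF-ESCs replicate 1 (-1.02 with LIF and -1.01 with OSM) and, with OSM, without OSM-ESCs replicate 1 (-1.11). Cdh1 and Cdh3 are neighbours, 46.1 kb apart, and 3 other genes lie within 100 kb of the pair. Of these, Zfp90 (log2 fold change -0.73 in each comparison) and Tango6 (-0.50 and -0.54) were lower and Gm10073 (-0.08 in each) did not pass the test, a look at neighbours that was chosen after the values were seen.

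Cdh2 (chr18:16588877-16809246 on the minus strand), in contrast, was the least abundant member in -LIF-ESCs. Its level was 5.17 and 6.05 TPM in -LIF-ESCs, 6.94 and 7.97 TPM in LIF-ESCs, and 10.7 and 10.2 TPM in OSM-ESCs, from 454 to 995 recovered reads per library. The 3 groups did not overlap, with -LIF-ESCs lowest and OSM-ESCs highest. The rise in OSM-ESCs, 0.79 on the log2 scale (95% interval 0.53 to 1.05, limma adjusted p = 0.0013), was past the threshold under every alternative run. The rise in LIF-ESCs, 0.36 (95% interval 0.10 to 0.62, limma adjusted p = 0.0264), was not stable. It was 0.26 with a limma adjusted p of 0.118 without -LIF-ESCs replicate 1, 0.27 with a limma adjusted p of 0.121 without LIF-ESCs replicate 2, and 0.19 with a limma adjusted p of 0.142 after rescaling by the median ratio. A limma fit without either OSM-ESCs library (adjusted p = 0.0510 for each), or of only the 2 groups compared (adjusted p = 0.0526), also left it just short of the threshold.

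The ratio of Cdh1 to Cdh2 within a library does not depend on how the library was scaled. It was 86.5 and 73.6 without cytokine, 32.2 and 27.6 with LIF, and 20.7 in both libraries with OSM. Cdh1 thus exceeded Cdh2 in every library, and the 3 groups did not overlap. On the log2 scale the mean ratio was 6.32 ± 0.165 (SD, n = 2) without cytokine, 4.90 ± 0.156 with LIF and 4.37 ± 0.00116 with OSM. The exact two-sided permutation test over 2 libraries against 2 gave p = 0.333 for each pair of groups, the smallest p it can give. In bulk RNA the ratio also depends on the mix of cells. Summed TPM of 16 fibroblast markers was 122 to 129 without cytokine, 660.4 to 662 with LIF and 986 to 990.2 with OSM. Their part in this ratio was not tested.

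**Figure D2:**
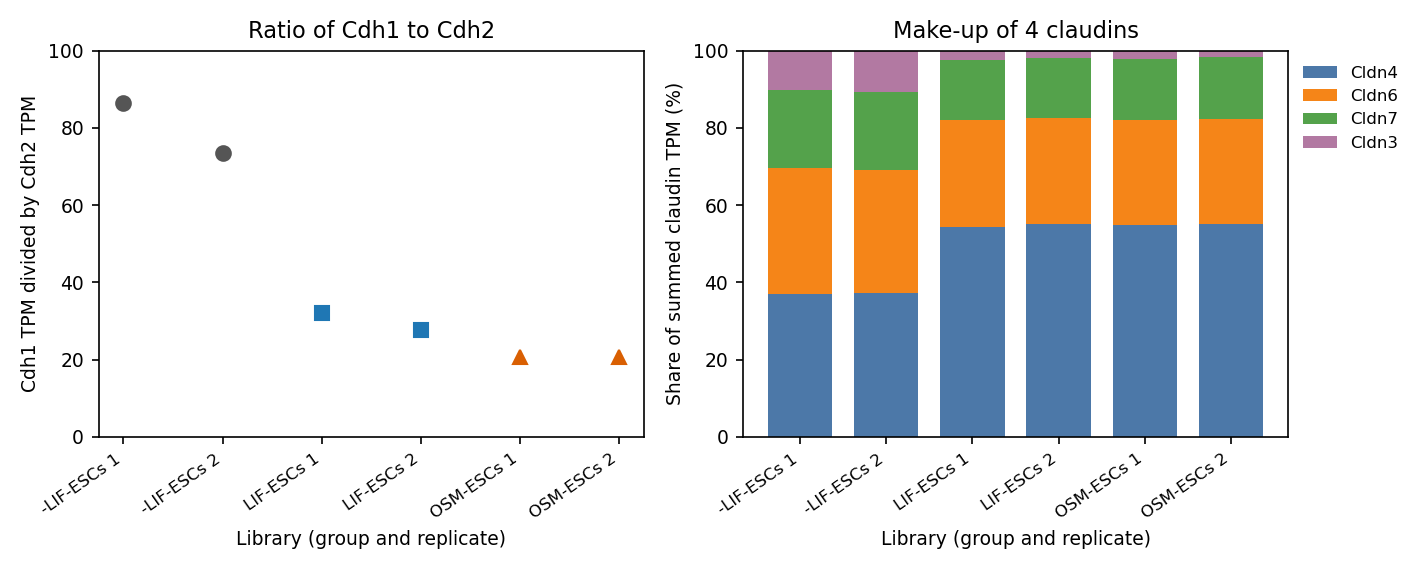
Left, TPM of Cdh1 divided by TPM of Cdh2 in each library (linear axis, 1 point per library); right, the share of each of 4 claudins in their summed TPM (%), 1 stacked bar per library. The ratio is 73.6 or more in -LIF-ESCs and 32.2 or less elsewhere, and the mean share of Cldn4 is 37.0% without cytokine, 54.8% with LIF and 55.0% with OSM.

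All 4 claudins were at their highest without cytokine, with Cldn3 showing the largest fold change of the 9 members. For reference, the bases just before the start of the 4 claudin genes and of Epcam, as far as the RefSeq promoter table (GRCm38.p6) gives them, are printed here 5′ to 3′ on each gene's own strand, since these are the members whose upstream sequence was at hand. Capitals mark CAGGTG or its reverse complement CACCTG, the E-box that repressors of the Snai and Zeb families bind, which was searched on both strands and is held by 17.22% of 32851 RefSeq promoter windows of 250 bases.
Cldn3: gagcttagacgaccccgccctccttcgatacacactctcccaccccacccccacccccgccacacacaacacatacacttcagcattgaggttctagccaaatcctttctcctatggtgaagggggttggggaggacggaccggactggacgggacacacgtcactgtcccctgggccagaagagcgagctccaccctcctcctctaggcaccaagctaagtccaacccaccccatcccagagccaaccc
Cldn4: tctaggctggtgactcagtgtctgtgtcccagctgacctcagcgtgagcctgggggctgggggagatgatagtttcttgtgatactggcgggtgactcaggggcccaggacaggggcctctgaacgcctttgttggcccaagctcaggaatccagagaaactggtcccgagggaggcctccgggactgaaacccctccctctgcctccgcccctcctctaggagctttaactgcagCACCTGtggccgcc
Cldn6: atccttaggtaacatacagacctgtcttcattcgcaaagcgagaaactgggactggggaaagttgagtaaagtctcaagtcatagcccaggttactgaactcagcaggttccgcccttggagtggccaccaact
Cldn7: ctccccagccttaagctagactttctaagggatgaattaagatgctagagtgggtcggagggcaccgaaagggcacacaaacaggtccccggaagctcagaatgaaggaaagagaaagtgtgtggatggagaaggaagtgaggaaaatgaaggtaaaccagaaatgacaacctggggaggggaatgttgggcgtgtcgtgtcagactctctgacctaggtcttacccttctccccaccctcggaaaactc
Epcam: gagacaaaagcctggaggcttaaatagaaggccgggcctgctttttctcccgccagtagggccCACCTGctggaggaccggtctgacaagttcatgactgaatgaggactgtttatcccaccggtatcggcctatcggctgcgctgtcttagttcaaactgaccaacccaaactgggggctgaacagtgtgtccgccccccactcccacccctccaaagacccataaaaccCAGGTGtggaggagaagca
The windows are chr5:134985964-134986213 (plus strand, 250 bases) for Cldn3, chr5:134946935-134947184 (minus strand, 250 bases) for Cldn4, chr17:23679115-23679248 (plus strand, 134 bases) for Cldn6, chr11:69964529-69964778 (plus strand, 250 bases) for Cldn7 and chr17:87635729-87635978 (plus strand, 250 bases) for Epcam. The E-box was present in 2 places in the Epcam window, 187 and 19 bases before the start, and in 1 place in the Cldn4 window, 14 bases before the start. It was not among the letters of the Cldn3, Cldn6 and Cldn7 windows. Neither TTCNNNGAA, the palindrome bound by STAT factors (in 7.02% of the 250-base windows), nor AACCGGTT, bound by Grainyhead-like factors (in 0.1157%), both searched on both strands, was in any of the 5 windows. The promoters of Cdh1, Cdh2, Cdh3 and Tjp1 are not shown.

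Cldn3 (chr5:134986214-134987472, plus strand) is a sealing claudin of simple epithelia. It was at 67.4 and 69.7 TPM in -LIF-ESCs, 5.76 and 5.11 TPM in LIF-ESCs, and 4.87 and 4.13 TPM in OSM-ESCs, from 961 and 816 recovered reads in -LIF-ESCs and 58 to 68 in the other libraries. The -LIF-ESCs libraries were more than 10-fold above all others. Mean Cldn3 was 12.6-fold lower in LIF-ESCs (5.43 ± 0.460 TPM, SD, n = 2) and 15.2-fold lower in OSM-ESCs (4.50 ± 0.530 TPM) than in -LIF-ESCs (68.5 ± 1.58 TPM). The fitted difference was -3.44 (SE 0.0922, limma adjusted p = 7.94e-06) with LIF and -3.66 (limma adjusted p = 6.24e-06) with OSM. An antisense gene, Wbscr25, overlaps Cldn3 and was listed at 2.04 and 2.74 TPM in -LIF-ESCs and at 0.523 TPM or less elsewhere. Whether reads were counted by strand is not given in the sources used here, so reads of the pair cannot be told apart.

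Cldn4 (chr5:134945119-134946934, minus strand), a barrier claudin that lies 39.3 kb from Cldn3, was the most abundant of the 4 in every library. It was at 246 and 241 TPM in -LIF-ESCs, 135 and 144 TPM in LIF-ESCs, and 124 and 131 TPM in OSM-ESCs. The 3 groups did not overlap, although LIF-ESCs and OSM-ESCs lay close together. Cldn4 fell by 0.79 in LIF-ESCs (SE 0.0469, limma adjusted p = 7.30e-05) and by 0.93 in OSM-ESCs (limma adjusted p = 4.39e-05), a decrease in mean TPM of 1.74-fold and 1.91-fold that stayed under the limit for a call. After rescaling by the median ratio the difference was -0.98 with LIF and, past the limit, -1.12 with OSM (limma adjusted p = 4.34e-05). Of the 6 other genes within 100 kb of Cldn3 and Cldn4, again looked at after the values were seen, Stx1a (0.92 and 0.95) and Dnajc30 (1.06 and 0.98) were higher, Vps37d (-1.27 and -1.12) was lower, and Mettl27, Abhd11 and Bud23 did not pass the test in either comparison.

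Cldn6 (chr17:23679249-23682446, plus strand) is an early embryonic claudin, found in ESCs and the first epithelia they form. It was at 219 and 207 TPM in -LIF-ESCs, 68.7 and 72.1 TPM in LIF-ESCs, and 61.5 and 64.5 TPM in OSM-ESCs. It was thus lower in both cytokine groups without overlap, and fell by 1.58 in LIF-ESCs (SE 0.0487, limma adjusted p = 1.10e-05) and by 1.74 in OSM-ESCs (limma adjusted p = 8.23e-06). Mean TPM was 3.03-fold and 3.38-fold lower.

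Cldn7 (chr11:69964779-69967885, plus strand), the claudin partner of Epcam, was close to Cldn6 in the size of its change. It was at 134 and 130.1 TPM in -LIF-ESCs, 39.2 and 40.2 TPM in LIF-ESCs, and 35.9 and 38.0 TPM in OSM-ESCs. The -LIF-ESCs libraries were about 3-fold above the rest, and LIF-ESCs lay slightly above OSM-ESCs without overlap. Cldn7 fell by 1.71 in LIF-ESCs (SE 0.0449, limma adjusted p = 7.62e-06) and by 1.81 in OSM-ESCs (limma adjusted p = 6.05e-06).

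The summed TPM of the 4 claudins was 657 ± 12.8 (SD, n = 2) without cytokine, 255 ± 9.12 with LIF and 232 ± 7.74 with OSM. Their make-up differed as well, given here as a description with no test. Cldn3 made 10.4% ± 0.444 of the sum without cytokine, 2.13% ± 0.256 with LIF and 1.94% ± 0.293 with OSM. Cldn4 made 37.0% ± 0.175, 54.8% ± 0.556 and 55.0% ± 0.161, so that it was over 50% of the claudin sum wherever a cytokine was present. The share of Cldn6 was 32.4%, 27.6% and 27.1%, and that of Cldn7 was 20.1%, 15.5% and 15.9%, in the same order of groups. These differences between -LIF-ESCs and the other groups were larger than the SD between replicates. LIF-ESCs and OSM-ESCs were within 0.5 percentage points of each other for every claudin. For Cldn6 (27.57% ± 0.0209 with LIF and 27.15% ± 0.0159 with OSM) and Cldn7 (15.54% ± 0.279 and 15.93% ± 0.116) this smaller difference was also larger than the SD.

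Epcam and Tjp1 changed least. Epcam (chr17:87635979-87651129, plus strand) was at 272 and 281 TPM in -LIF-ESCs, 238 and 219.8 TPM in LIF-ESCs, and 213 and 205 TPM in OSM-ESCs. The 3 groups did not overlap, but the spread within LIF-ESCs (SD 13.2 TPM) was wide next to the distance between groups. Epcam fell by 0.27 in LIF-ESCs (SE 0.0507, limma adjusted p = 0.00535) and by 0.40 in OSM-ESCs (limma adjusted p = 0.00117), which is 1.21-fold and 1.32-fold in mean TPM.

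Tjp1 (chr7:65296165-65527781, minus strand) was at 92.5 and 95.8 TPM in -LIF-ESCs, 80.9 and 80.8 TPM in LIF-ESCs, and 77.9 and 74.2 TPM in OSM-ESCs. Here too the groups stood apart in the order -LIF-ESCs, LIF-ESCs, OSM-ESCs. Tjp1 fell by 0.22 in LIF-ESCs (SE 0.0406, limma adjusted p = 0.00535) and by 0.30 in OSM-ESCs (limma adjusted p = 0.00144). Together with the absence of overlap for the other members, all 9 genes had -LIF-ESCs libraries outside the range of LIF-ESCs and of OSM-ESCs. Among all genes tested, libraries did not overlap for 33.4% on the lower and 50.9% on the higher side in LIF-ESCs, and for 32.4% and 51.5% in OSM-ESCs.

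**Figure D3:**
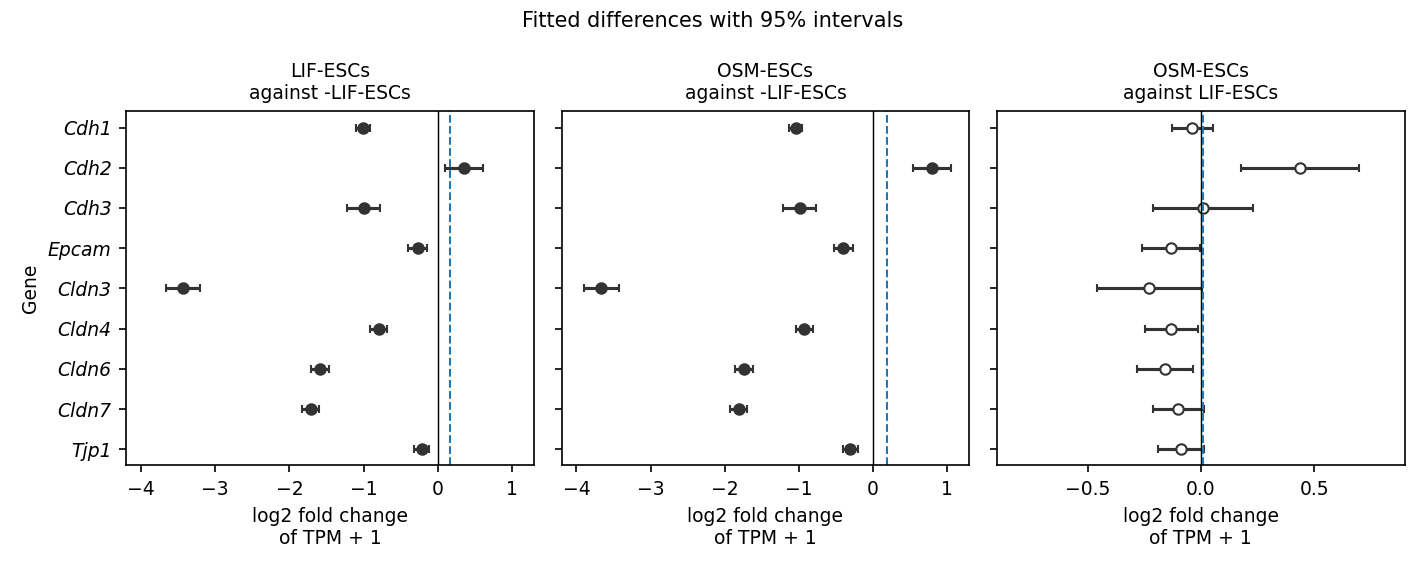
Fitted log2 fold change of TPM + 1 for the 9 genes in the 3 comparisons, with bars for the 95% interval; filled points have a limma adjusted p under 0.05, open points do not, and the dashed line is the median of all genes tested. The 2 comparisons with -LIF-ESCs show 8 filled points below 0 and Cdh2 above it, and the third panel, drawn on a narrower axis, holds open points only.

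Between the 2 cytokines no member passed the adjusted test. In OSM-ESCs set against LIF-ESCs, 0 of 9 members had a limma adjusted p under 0.05 and 0 were called at 2-fold, and at an unadjusted p under 0.05 Cdh2 was higher and Epcam, Cldn4 and Cldn6 were lower. Among all genes tested, 0.463% were higher and 0.129% lower at the adjusted threshold, 0.0323% and 0.0485% with the 2-fold limit as well, and 9.8% and 5.5% at the unadjusted threshold. The libraries did not overlap for 7 members, Cdh2 on the higher side and 6 on the lower, against 26.3% and 20.9% of all genes.

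Cdh2 had the widest difference between the cytokines, 0.44 on the log2 scale higher in OSM-ESCs (95% interval 0.18 to 0.70, limma adjusted p = 0.161). The call depended on the values tested, since limma's voom on recovered reads gave 0.49 with an adjusted p of 0.000257. Epcam was 0.13 lower (95% interval -0.26 to -0.002), with a limma adjusted p of 0.321 on TPM. In voom on recovered reads its adjusted p was 0.0417, but the reads of Epcam did not come out whole and were rounded for that fit. For Cdh1 the difference was -0.04 (95% interval -0.13 to 0.05) and for Cdh3 it was 0.01 (-0.21 to 0.23). Cldn3 differed by -0.23 (-0.46 to 0.01), Cldn4 by -0.13 (-0.25 to -0.01), Cldn6 by -0.16 (-0.28 to -0.03), Cldn7 by -0.10 (-0.21 to 0.01) and Tjp1 by -0.09 (-0.19 to 0.01). These intervals bound the differences and do not show that OSM-ESCs and LIF-ESCs had the same levels.

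The order of the members by TPM, which is per length of transcript, changed with the medium. In -LIF-ESCs it ran from Cdh1 through Epcam, Cldn4, Cldn6, Cldn7, Tjp1, Cldn3 and Cdh3 to Cdh2, and no neighbours in that order overlapped between libraries. In LIF-ESCs and OSM-ESCs Cdh1 and Epcam overlapped at the top and were followed by Cldn4, Tjp1, Cldn6, Cldn7, Cdh3, Cdh2 and Cldn3, without overlap. Tjp1 thus stood above Cldn6 and Cldn7, and Cldn3 moved from above both Cdh3 and Cdh2 to the last place.

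The genes with the profile most like that of a member, by Euclidean distance between centred log2(TPM + 1) profiles over the 6 libraries, were taken from 13910 genes with a symbol of their own. For Cdh1 these were Efhd2 (distance 0.0536), Tubb5 (0.0639) and Eftud2 (0.0706), and for Epcam Zscan12 (0.0497), Ccdc34 (0.0547) and F2rl1 (0.0583). For Cldn6 they were Gpc3 (0.0779), Proser2 (0.0879) and Ikzf4 (0.104). The nearest genes to Cdh2 were farther off, namely Upk1b (0.138), Nefm (0.151) and Rab32 (0.156).

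Other genes of adherens junctions went in both directions. Of 21 cadherins, catenins and nectins listed, 14 were tested, with LIF 3 were higher and 6 lower, and with OSM 2 were higher and 5 lower, at a limma adjusted p under 0.05, beside 42.2% higher and 25.9% lower of all genes tested with LIF and 42.9% and 25.4% with OSM. After rescaling by the median ratio these counts were 2 higher and 10 lower in each. The median log2 fold change of the list was -0.18 with LIF and -0.15 with OSM, beside 0.17 and 0.18 for all genes tested.

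Cdh11, a cadherin of mesenchymal cells, rose from 0.367 and 0.495 TPM without cytokine to 21.7 and 22.9 TPM with LIF and 32.6 and 29.7 TPM with OSM. This was a log2 difference of 4.03 with LIF and 4.49 with OSM, so that Cdh11 lay above Cdh2 in every LIF-ESCs and OSM-ESCs library and below it in both -LIF-ESCs libraries. Nectin4, a nectin of epithelia, fell by 2.11 and 2.17. Vcl (vinculin), which anchors junctions to actin, fell by 1.13 in LIF-ESCs and by 0.83, short of a call, in OSM-ESCs. The catenins are given for their role beside Cdh1, although chosen after their values were seen. Ctnnb1 was at 329 ± 1.69, 327 ± 7.23 and 316 ± 6.91 TPM (SD, n = 2) without cytokine, with LIF and with OSM and did not pass the test, whereas Ctnna1 fell by 0.27 and 0.34 and Jup by 0.65 and 0.67.

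Tight junction and polarity genes were mostly lower with either cytokine. Of 21 listed and tested, with LIF 13 were lower and 4 higher, and with OSM 14 were lower and 3 higher (limma adjusted p under 0.05). Among all genes tested, 25.9% were lower and 42.2% higher with LIF, and 25.4% and 42.9% with OSM. The list had medians of -0.46 and -0.53. Marveld2 (tricellulin), which seals corners where 3 cells meet, was at 20.1 and 22.1 TPM in -LIF-ESCs, 3.97 and 4.59 TPM in LIF-ESCs, and 4.57 and 3.17 TPM in OSM-ESCs. Marveld2 differed from -LIF-ESCs by a log2 fold change of -2.07 and -2.20, that of Cgn (cingulin), a cytoplasmic plaque protein, was -1.74 and -1.86, and that of the polarity factor Pard6b was -1.28 and -1.53. Jam2, a junctional adhesion molecule also of endothelium and germ cells, moved the other way, by 1.77 and 1.41.

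Of 19 other claudins listed, 16 were in the table and 6 were tested. In LIF-ESCs 3 of these were lower and 1 higher, and in OSM-ESCs 3 were lower and 0 higher (limma adjusted p under 0.05), beside the same shares of all genes, while 5 were lower and 0 higher in each after rescaling by the median ratio. The 2 called lower were Cldn5, the main claudin of endothelium (-2.10 and -2.01), and Cldn23 (-1.12 and -1.14). Both were low throughout, Cldn5 at 3.50 and 4.33 TPM and Cldn23 at 1.05 and 1.74 TPM in -LIF-ESCs.

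Partners of Epcam and membrane proteases went in both directions, with 5 of 15 higher and 6 lower under LIF and 6 of 15 higher and 6 lower under OSM (limma adjusted p under 0.05), where 42.2% and 42.9% of all genes tested were higher and 25.9% and 25.4% lower. Rescaling by the median ratio gave 3 higher and 7 lower under LIF and 2 higher and 9 lower under OSM, and turned the sign of Cd9 under LIF and of Adam10 and Spint2, among others, under OSM. St14 (matriptase), a protease that cleaves Epcam, was at 51.8 and 50.9 TPM in -LIF-ESCs, 20.9 and 21.5 TPM in LIF-ESCs, and 20.4 and 19.1 TPM in OSM-ESCs. The -LIF-ESCs libraries lay above the other 4, and St14 fell by 1.24 and 1.33. Cd44, a hyaluronan receptor, rose by 2.48 and 2.93 and Fhl2, a cofactor of the cleaved intracellular domain of Epcam, by 1.27 and 1.65.

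Most of the listed transcriptional repressors of Cdh1 were higher with the cytokines. Of 7 listed and tested, with LIF 5 were higher and 0 lower, and with OSM 6 were higher and 0 lower (limma adjusted p under 0.05), beside 42.2% and 42.9% of all genes tested that were higher. Snai1 (0.23) and Tcf3 (-0.06) did not pass with LIF, nor did Tcf3 (-0.03) with OSM. The list medians were 1.05 and 1.34. The 16 fibroblast markers summed to 122 to 129 TPM without cytokine, 660.4 to 662 TPM with LIF and 986 to 990.2 TPM with OSM, and their part in the levels of these repressors was not tested. After rescaling by the median ratio 5 were higher and 1, Tcf3, was lower in each comparison. Snai2 was at 1.27 and 0.798 TPM in -LIF-ESCs, 8.60 and 8.72 TPM in LIF-ESCs, and 12.0 and 10.1 TPM in OSM-ESCs. The other genes called were Twist1 (2.00 and 2.25), Zeb1 (1.76 and 1.96) and Zeb2 (1.05 and 1.34).

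Regulators of the epithelial state went in both directions. Of 13 listed, 12 were tested, and 4 were higher and 6 lower with LIF, as were 5 and 6 with OSM (limma adjusted p under 0.05), beside 42.2% and 42.9% of all genes tested that were higher and 25.9% and 25.4% that were lower, while rescaling by the median ratio gave 3 higher and 6 lower in each. Elf3, an ETS factor of epithelia, fell by 2.53 and 2.54, and Cdx2, a trophoblast and gut factor, by 2.16 and 1.61. Tfap2a, an AP-2 factor of trophoblast and surface ectoderm, fell by 1.53 and 1.13. Klf5, a Kruppel-like factor of ESCs and epithelia, rose by 2.20 and 1.99 and Grhl1, a Grainyhead-like factor, by 1.50 and 1.43.

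**Figure D4:**
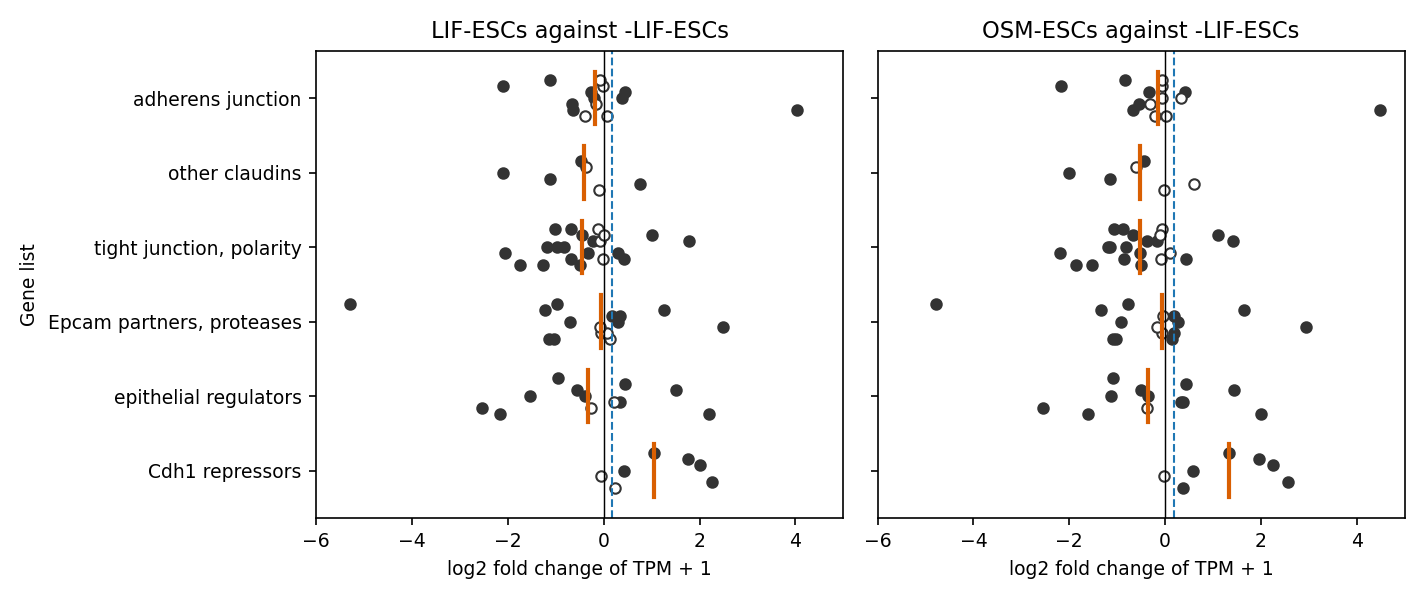
Log2 fold change of TPM + 1 against -LIF-ESCs for the tested genes of 6 lists, 1 point per gene, in LIF-ESCs (left) and OSM-ESCs (right); filled points have a limma adjusted p under 0.05, orange bars are list medians, and the dashed line is the median of all genes tested. The bar of the Cdh1 repressors is at 1.05 and 1.34, to the right of the dashed line, and that of the tight junction and polarity genes at -0.46 and -0.53, to its left.

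Between the cytokines, 0 genes of any of these 6 lists passed limma's adjusted threshold. The lists were chosen with results of these libraries in view, and no list was tested as a set.

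Markers of other cell types moved with the same groups. Counts of higher and lower markers are at a limma adjusted p under 0.05. At that threshold 42.2% of all genes tested were higher and 25.9% lower with LIF, and 42.9% and 25.4% with OSM. Summed TPM of 8 trophoblast and simple-epithelium markers (Krt8, Krt18 and others) was 2360 to 2381 without cytokine, 60.5 to 61.3 with LIF and 72.7 to 77.96 with OSM, and 8 of 8 were lower in each cytokine group, with none at 0 in both libraries of a group. The keratins Krt8, Krt18 and Krt19 held most of the sum without cytokine, where Cdx2, Gata3 and Ascl2 lay between 3.66 and 5.17 TPM. Cdx2 and Tfap2c are in this list and among the epithelial regulators. Of the 16 fibroblast markers summed above, which also mark feeder cells, 15 were higher and 1, Col5a1, was lower in each cytokine group. Of these markers 5 were also higher with OSM than with LIF (limma adjusted p under 0.05), beside 0.463% of all genes tested. None was at 0 in any group. Lox, Dcn, Prrx1 and Postn, however, lay at 0.355 TPM or less without cytokine and at 10.08 TPM or more elsewhere. Col5a1, Acta2 and Col1a1 held most of the -LIF-ESCs sum. Mesendoderm markers summed to 148 to 151 TPM in -LIF-ESCs and 3.37 to 4.94 TPM in the other 4 libraries, with 6 of 6 lower. T and Fgf8 held most of the -LIF-ESCs sum, where Mixl1, Mesp1 and Gsc lay between 1.52 and 3.62 TPM. Primitive endoderm markers summed to 43.3 to 43.6 TPM in -LIF-ESCs, 115 to 116 TPM in LIF-ESCs and 94.0 to 94.8 TPM in OSM-ESCs, with 8 of 8 tested higher with LIF and 6 of 8 with OSM. Col4a1 and Lama1 held most of each sum, and Pdgfra is also among the fibroblast markers. The listed Foxa2 was too low to be tested and was highest without cytokine (0.932 and 0.725 TPM). Neural markers summed to between 60.1 and 78.3 TPM throughout, although 4 of 5 tested were higher and 1, Nes, was lower in each cytokine group. Their median log2 fold changes were 1.41 and 1.49. Nes and Tubb3 held most of each sum. Sox1, Pax6 and Zic1 were at 0.506 TPM or less without cytokine and between 1.69 and 3.72 TPM elsewhere. Surface ectoderm markers summed to 9.44 to 10.0 TPM in -LIF-ESCs and 1.61 TPM or less elsewhere. The defining markers Krt5 (0.241 and 0.0489 TPM) and Trp63 (0.137 and 0.102 TPM) were very low in -LIF-ESCs as well and at 0 elsewhere. Krt14 (4.57 and 4.10 TPM) and Tfap2a (3.89 and 4.41 TPM) held most of the -LIF-ESCs sum, and Tfap2a is also among the epithelial regulators. The part of these cell types in the levels of the 9 adhesion genes was not tested. In bulk RNA, fewer cells of a type and less RNA per cell cannot be told apart.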

How the data were processed

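Polyadenylated RNA of 6 mouse ESC libraries (3 groups of 2, grouped by the labels) was analysed from 1 table of TPM values deposited by the authors. The submitters' processing notes name Trimmomatic, HISAT2, featureCounts and build mm10, and versions are not given in the sources used here. TPM scales each library to the same total, so a few abundant genes can shift all others. Genes that reached 1 TPM in 2 or more libraries (18556 of 28584) were fitted as log2(TPM + 1) with limma 3.58.1 (eBayes with a trend, R 4.3.3) over all 3 groups. P-values were Benjamini-Hochberg adjusted over all genes tested, and a call needed this p to be under 0.05 with a log2 fold change of 1 or more in either direction. The study describes the replicates as biological. The labels do not say that they were separate cultures, so p-values measure the spread between these samples only, which may be technical.

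TPM times GENCODE M21 exon length gave whole reads for 95.3% of values (within 0.02), with 28405 symbols matched, and 20712974 to 28994419 reads per library. Epcam and Cldn6 did not come out whole, and their read counts are not given. Gene coordinates are GRCm38, and upstream sequences are from RefSeq (GRCm38.p6).

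The members and lists were chosen with earlier results of these data known. Beside the 9 members, the named genes were, per list and comparison, the called genes with the largest change (at most 4), and the 3 nearest profiles of 4 members; neighbouring genes and catenins were added after the values were seen, and some listed genes are not reported here. Alternatives were a pseudocount of 0.1, no filter or 5 TPM, no trend, a fit of 2 groups alone, blocking on the replicate number, median-ratio rescaling, dropping 37 mitochondrially encoded genes, voom on recovered reads, no fold limit and leaving out each replicate. Steps were tested on simulated data.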

Additional observations from a re-analysis of the deposited data

How the results depend on the processing

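For LIF-ESCs against -LIF-ESCs, 129 of 135 values (9 members under 15 alternatives) kept their direction and side of the threshold, and the other 6 were Cdh2, no longer past it. For OSM-ESCs against -LIF-ESCs 135 of 135 did so. For OSM-ESCs against LIF-ESCs 132 did, Cdh2 and Epcam became significant in voom on recovered reads, and Cdh3 reversed to -0.11 without OSM-ESCs replicate 1, within a range of -0.11 to 0.13 when each replicate was left out. The cause was not tested. Without the fold limit, 1 member was called higher and 8 lower in each comparison with -LIF-ESCs. Members called lower numbered 4 or 5 in each when 1 replicate was left out, not always the same ones, as Cdh1 and Cdh3 lie near the limit. With median-ratio rescaling, and in voom on recovered reads, they numbered 5 with LIF and 6 with OSM.

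With 1 added to both values, the log2 ratio of Cdh1 to Cdh2 was 6.08 without cytokine, 4.72 with LIF and 4.25 with OSM. As shares of recovered reads, which are not per length and hold a value for Cldn6 that did not come out whole, the claudins Cldn3, Cldn4, Cldn6 and Cldn7 made 7.49%, 38.3%, 31.8% and 22.3% without cytokine and 1.36%, 55.5%, 25.95% and 17.2% with OSM, and Cldn3, Cldn6 and Cldn7 made 1.49%, 26.4% and 16.8% with LIF.

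Samples with the same replicate number showed no shared shift between groups (correlations of deviations -0.04, -0.02 and 0.03). This cannot tell whether they were handled in pairs. The replicate block left the members called lower at 4 in each comparison with -LIF-ESCs and changed no member's call. Over all genes, OSM-ESCs against LIF-ESCs gave 6 higher and 9 lower calls, and 0 and 0 in limma with the block (1640 higher and 837 lower at an unadjusted p under 0.05) or with only these groups fitted, 3 and 3 with a pseudocount of 0.1, 13 and 7 without a filter, 3 and 7 at 5 TPM, 6 and 4 without a trend and 23 and 28 in voom on recovered reads. Leaving out a replicate gave 0 or 1 higher and 0 lower. Genes called lower against -LIF-ESCs numbered 1502 in LIF-ESCs and 1459 in OSM-ESCs, 2314 and 2333 in voom, and 996 and 975 at 5 TPM. Rescaling by the median ratio moved the higher share of calls from 62.2% to 49.6% in LIF-ESCs and from 64.3% to 51.1% in OSM-ESCs. With 2 libraries a group, the standard error was largest for Cdh2 (0.103), and counting error for Cldn3, at 58 to 68 reads in the cytokine libraries.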
